A study of Mus musculus with 6 samples.

Results

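The transcripts of 10 genes that the transcription factor p53 is known to activate were followed in mouse liver after a single large dose of ethanol. The genes were taken by name as a list of well-known p53 targets, Cdkn1a, Mdm2, Ccng1, Bax, Phlda3, Eda2r, Btg2, Gadd45a, Trp53inp1 and Zmat3, and all 10 were present once among the 28880 genes of the deposited table. Livers came from 3 mice of the acute ethanol group and 3 of the control group, all male, wild-type C57BL/6J animals of 6 to 8 weeks whose libraries carry the same batch label. Ethanol was given once by mouth, as a 50% solution at 6 g/kg, after a fast of 12 h, and the liver was collected 24 h later. Control mice were kept without ethanol, and neither the labels nor the methods state whether they were fasted or gavaged, so ethanol, fasting and gavage cannot be told apart in this comparison. The question was whether Cdkn1a rose together with the other targets.

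p53 is held at a low level in unstressed cells by Mdm2, a ubiquitin ligase that marks it for degradation. DNA damage and other stresses free p53 from this control, largely through changes of the protein rather than of its transcript, and it then binds near its target genes and raises their transcription. The targets carry out different parts of the response. Cdkn1a, which encodes the cyclin-dependent kinase inhibitor p21, Btg2 and Gadd45a restrain the cell cycle, Mdm2 and Ccng1 feed back on p53 itself, and Bax, Eda2r and Phlda3 act toward cell death or limit survival signals. Trp53inp1 encodes a stress protein that acts in cell death and autophagy, and Zmat3 encodes an RNA-binding protein. Several of these genes also answer to regulators other than p53.

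p53 binds a 10-base element, here called the p53 decamer, made of 3 purines, a C, 2 bases that are A or T, a G and 3 pyrimidines. The pattern reads the same on both strands, and a pair of decamers makes a full response element. The 250 bases upstream of each annotated start site were searched in the RefSeq promoter table on GRCm38.p6, which matched 8 of the 10 genes and did not hold Trp53inp1 and Zmat3. An exact decamer occurred in 7.13% of the 32851 promoters in the table, in Mdm2, Ccng1, Bax and Gadd45a with 1 match each, and in the more upstream of both Cdkn1a start sites with 2. A pair of exact decamers with a spacer of 0 to 13 bases occurred in 21 promoters (0.0639%), of which the upstream Cdkn1a promoter was one. An adjacent pair with at most 1 mismatch over its 20 bases, a search added after the first was seen, occurred in 25 promoters (0.0761%), with the upstream Cdkn1a promoter and Ccng1 among them. The promoters of Phlda3, Eda2r, Btg2 and the downstream Cdkn1a start site held none of these letters in this window. A match is a description of the letters and not a bound site. The promoters shown are those of 3 genes that rose (Cdkn1a, Gadd45a, Btg2) and of 2 that did not pass the threshold (Ccng1, Mdm2), written 5′ to 3′ and ending at the base before the start site, with exact decamers and adjacent pairs in capitals.
Cdkn1a, upstream start site, chr17:29090729-29090978, plus strand: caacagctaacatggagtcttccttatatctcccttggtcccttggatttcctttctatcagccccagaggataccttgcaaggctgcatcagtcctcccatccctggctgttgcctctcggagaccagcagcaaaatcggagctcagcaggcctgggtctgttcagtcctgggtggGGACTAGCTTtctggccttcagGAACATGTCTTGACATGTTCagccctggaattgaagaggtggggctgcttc
Gadd45a, chr6:67037408-67037657, minus strand: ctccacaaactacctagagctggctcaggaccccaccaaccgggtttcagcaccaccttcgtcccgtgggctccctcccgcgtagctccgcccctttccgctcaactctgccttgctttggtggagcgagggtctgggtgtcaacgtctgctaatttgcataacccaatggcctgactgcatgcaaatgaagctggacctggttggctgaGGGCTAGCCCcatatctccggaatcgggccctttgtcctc
Btg2, chr1:134079156-134079405, minus strand: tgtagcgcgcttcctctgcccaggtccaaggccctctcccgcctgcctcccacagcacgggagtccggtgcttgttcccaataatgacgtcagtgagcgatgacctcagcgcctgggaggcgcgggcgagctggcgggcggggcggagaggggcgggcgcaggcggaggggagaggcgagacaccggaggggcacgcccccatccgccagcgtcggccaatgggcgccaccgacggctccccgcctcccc
Ccng1, chr11:40755287-40755536, minus strand: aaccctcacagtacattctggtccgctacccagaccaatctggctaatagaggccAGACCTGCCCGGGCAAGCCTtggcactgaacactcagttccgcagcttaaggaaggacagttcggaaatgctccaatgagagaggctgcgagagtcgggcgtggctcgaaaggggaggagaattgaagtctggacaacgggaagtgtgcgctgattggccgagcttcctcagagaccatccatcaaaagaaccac
Mdm2, chr10:117710759-117711008, minus strand: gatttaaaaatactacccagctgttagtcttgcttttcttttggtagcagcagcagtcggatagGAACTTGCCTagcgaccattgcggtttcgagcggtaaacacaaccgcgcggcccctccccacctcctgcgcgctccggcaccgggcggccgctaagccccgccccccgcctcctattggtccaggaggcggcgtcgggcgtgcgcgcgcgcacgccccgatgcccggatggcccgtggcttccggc
In the upstream Cdkn1a promoter the decamers began at -73 and -51 relative to the start site, and the second of them opened the adjacent pair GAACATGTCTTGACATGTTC. In Ccng1 the adjacent pair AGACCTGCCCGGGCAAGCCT began at -195. Gadd45a held a single decamer at -40, and Mdm2 one at -186. The counts do not separate transcripts of the upstream and downstream Cdkn1a start sites.

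Levels are given as CPM, a gene's share of the counts scaled to the TMM-normalized library size, which allows a gene to be compared between mice, and as the authors' FPKM, which is scaled to transcript length and allows genes to be compared within a mouse. Libraries held between 60514417 and 74210869 counts. TMM factors were 0.768 to 0.836 after ethanol and 1.26 to 1.27 in controls, and the FPKM values do not carry this correction. The log2 fold change of ethanol over control (log2FC) was fitted with edgeR's quasi-likelihood model, tested on both sides and given with its standard error (SE). Its p-values were adjusted by the Benjamini-Hochberg method over the 16717 genes tested, and genes past 0.05 whose log2FC exceeded 1 in size were called upregulated or downregulated. Hepatocyte markers had a summed level of 46757 to 51278 FPKM after ethanol and 40193 to 46167 FPKM in controls. Of the 10, 3 were upregulated, as were 10.4% of all genes tested. At an adjusted p under 0.05 and any fold, 9 of the 10 were higher, as were 21.5% of all genes. The median log2FC of these markers was 0.76, against -0.04 over all genes tested. Of the neutrophil markers, 4 of 5 tested were upregulated, with a sum of 2.52 to 14.5 FPKM after ethanol and 1.04 to 1.07 FPKM in controls, and Ly6g, Mpo and Elane had 0 counts in ethanol replicates 1 and 2. Erythroid markers had 4 of 5 upregulated (532 to 761 against 201 to 250 FPKM). The 10 Kupffer cell markers had 0 called in either direction, with 2 lower at an adjusted p under 0.05 and any fold. Their sum was 54.6 to 68.8 against 94.2 to 105 FPKM, without the TMM correction, and their median log2FC, with it, was -0.21. The part of these cells in the changes described here was not tested. In whole liver, fewer cells of a type and less RNA per cell cannot be told apart.

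In livers of acute ethanol-exposed mice, 4 of the 10 p53 targets were upregulated and the others were not. Cdkn1a, Btg2, Gadd45a and Trp53inp1 rose 19.9-fold, 56.6-fold, 161-fold and 7.88-fold, in that order, whereas Mdm2, Ccng1, Bax, Phlda3, Eda2r and Zmat3 did not pass the threshold. Among all genes tested, 10.4% were upregulated and 13.8% were downregulated. No target was downregulated by edgeR with TMM scaling, with 1 (Zmat3) lower at an unadjusted p under 0.05. DESeq2 and limma on log2(FPKM + 1) also called 0 downregulated, while edgeR with library size alone and limma on log2(FPKM + 0.1) called 1, again Zmat3. The median log2FC of the 10 targets was 0.69, against -0.04 over all genes tested. All 3 ethanol-exposed mice lay above all 3 control mice in CPM for 7 of the targets and below them for 1, where 28% and 31% of all genes did so. The count of 4 upregulated targets was the same under every other scaling, filter and test run, except that Mdm2 made it 5 when ethanol replicate 3 was left out or no fold change was required.

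**Figure D1:**
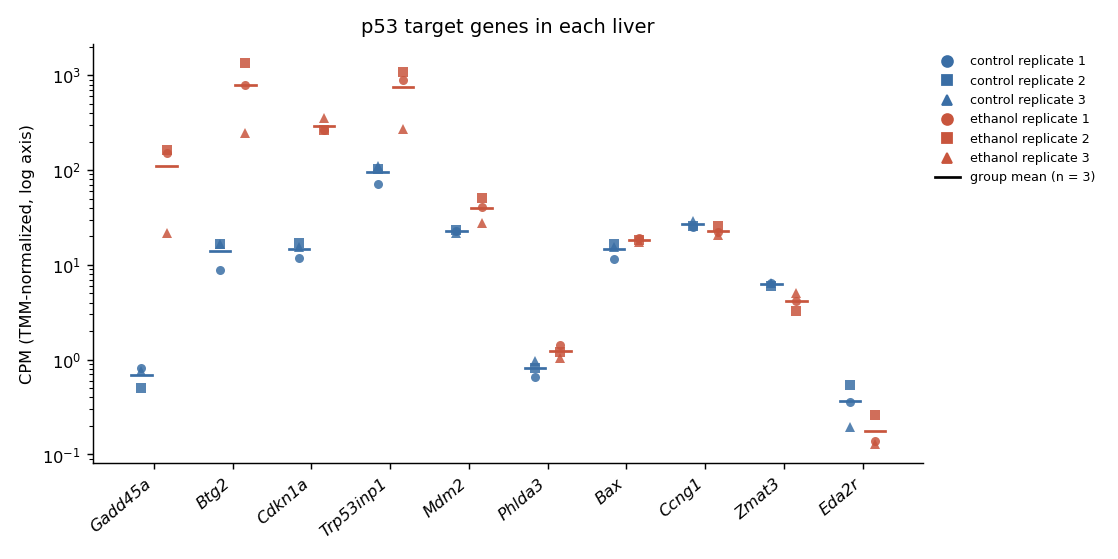
CPM of the 10 p53 targets on a log axis in each control (blue) and ethanol-exposed (red) liver, with bars at the group means and a marker shape for each replicate number. The groups are separated by wide gaps in Gadd45a, Btg2 and Cdkn1a and by a narrower one in Trp53inp1. In Gadd45a, Btg2 and Trp53inp1 ethanol replicate 3 (triangle) lies well below the other ethanol-exposed livers.

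Cdkn1a (ENSMUSG00000023067, chromosome 17, 29309950 to 29319701, plus strand, in the coordinates of the deposited table) encodes p21, which binds and inhibits cyclin-dependent kinases. Its level was 265, 263 and 353 CPM in ethanol replicates 1 to 3 and 11.9, 16.9 and 15.4 CPM in control replicates 1 to 3. The livers of each group were close to each other, with a ratio of highest to lowest of 1.34 in ethanol-exposed and 1.42 in control mice, and the groups were far apart. The log2FC was 4.32 (SE 0.20, 95% interval 3.84 to 4.79, edgeR adjusted p = 5.61e-05), and it stayed between 4.17 and 4.43 with each library left out in turn (adjusted p from 2.35e-06 to 0.00166). Dino, a long non-coding RNA that lies over the Cdkn1a promoter region on the opposite strand and is known as a p53 target, shared 1046 bases with the gene. Dino had 43, 82 and 32 counts in ethanol-exposed mice and 12, 13 and 15 in control mice, a log2FC of 2.47 (SE 0.49, edgeR adjusted p = 0.00697). Whether counting used the strand is not given in the sources used here, so reads of overlapping genes are uncertain, and with the counts of both genes summed the log2FC of Cdkn1a was 4.31.

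Btg2 (ENSMUSG00000020423, chromosome 1, 134002908 to 134006858, minus strand) encodes an antiproliferative protein that recruits the machinery of mRNA deadenylation. It had 799, 1348 and 244 CPM in ethanol replicates 1 to 3 and 8.90, 16.7 and 16.7 CPM in control replicates 1 to 3. Each ethanol-exposed liver was well above each control liver, although the highest ethanol-exposed liver was 5.52 times the lowest. The log2FC was 5.82 (SE 0.68, edgeR adjusted p = 0.000888), with 5.21 to 6.26 when each library was left out in turn, the lowest without ethanol replicate 2.

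Gadd45a (ENSMUSG00000036390, chromosome 6, 67012080 to 67014390, minus strand) encodes a small stress sensor that binds cell cycle kinases and p38 pathway kinases. Its level was 152, 161 and 21.9 CPM in ethanol replicates 1 to 3 and 0.809, 0.499 and 0.753 CPM in control replicates 1 to 3. It was the lowest but one of the 10 targets in control livers and reached the range of Cdkn1a in 2 of the 3 ethanol-exposed livers on the FPKM scale (62.4 and 71.4 FPKM, against 8.87 FPKM in ethanol replicate 3). The log2FC was 7.34 (SE 0.85, edgeR adjusted p = 0.000828), and 7.83 without ethanol replicate 3. E230016M11Rik overlaps 808 bases of Gadd45a on the opposite strand, with 221, 296 and 86 counts in ethanol-exposed mice and 117, 46 and 112 in control mice. Its own log2FC was 1.67 (SE 0.49, edgeR adjusted p = 0.0290), and with the counts of both genes summed that of Gadd45a fell to 6.03.

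Trp53inp1 (ENSMUSG00000028211, chromosome 4, 11156431 to 11174379, plus strand) encodes a nuclear stress protein that interacts with p53 and also acts in autophagy. It had 892, 1079 and 272 CPM in ethanol replicates 1 to 3 and 70.7, 104 and 110 CPM in control replicates 1 to 3. This gene was the most abundant of the 10 targets in control livers, at 17.3 ± 3.83 FPKM (SD, n = 3), and the groups did not overlap. The log2FC was 2.98 (SE 0.49, edgeR adjusted p = 0.00329), with 2.62 to 3.39 when each library was left out in turn.

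Mdm2 (ENSMUSG00000020184, chromosome 10, 117524780 to 117546663, minus strand), the ligase that restrains p53, had 40.9, 50.2 and 27.4 CPM in ethanol replicates 1 to 3 and 23.1, 23.1 and 21.7 CPM in control replicates 1 to 3. All ethanol-exposed livers were above all control livers, by a small margin in ethanol replicate 3. The log2FC was 0.80 (SE 0.21, 95% interval 0.31 to 1.30, edgeR adjusted p = 0.0193), a 1.74-fold rise that passed the adjusted p and not the threshold on the fold change. At an adjusted p under 0.05 and any fold change, 21.5% of all genes were higher and 21.5% lower, and 5 of the 10 targets were higher. Mdm2 depended on the scaling and the libraries. Its log2FC was 0.15 with library size alone (adjusted p = 0.617), 1.02 without ethanol replicate 3 (adjusted p = 0.000180), and between 0.77 and 0.82 without ethanol replicate 1 or any one control replicate (adjusted p from 0.0605 to 0.0758).

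Ccng1 (ENSMUSG00000020326, chromosome 11, 40639379 to 40646138, minus strand) encodes cyclin G1, which recruits a phosphatase to Mdm2. It had 22.4, 25.9 and 20.7 CPM in ethanol-exposed mice and 24.95, 25.9 and 29.3 CPM in control mice, in replicate order, and the groups overlapped. The log2FC was -0.22 (95% interval -0.51 to 0.08, edgeR adjusted p = 0.203), an interval that leaves out a 2-fold change in either direction under this scaling. With library size alone, which moved the median of all genes to -0.71, its log2FC was -0.88 (adjusted p = 0.00208). Bax (ENSMUSG00000003873, chromosome 7, 45111121 to 45116322, minus strand), the pore-forming protein of the mitochondrial death pathway, had 19.3, 18.2 and 17.5 CPM in ethanol-exposed mice and 11.4, 16.7 and 15.6 CPM in control mice, so that the groups lay next to each other. Its log2FC was 0.33 (95% interval -0.05 to 0.71, edgeR adjusted p = 0.135), with the sign turning to -0.34 for library size alone. Gm45808, which shares 915 bases of the same strand with Bax, had 25 counts in ethanol replicate 3 and 0 in the other libraries.

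Phlda3 (ENSMUSG00000041801, chromosome 1, 135693857 to 135696874, plus strand), a repressor of Akt signaling, was low, at 1.42, 1.21 and 1.04 CPM in ethanol-exposed mice and 0.660, 0.827 and 0.971 CPM in control mice. The ethanol-exposed livers lay just above the control livers, and the log2FC was 0.58 (95% interval -0.15 to 1.31, edgeR adjusted p = 0.169), or -0.08 with library size alone. Eda2r (ENSMUSG00000034457, chromosome X, 96377446 to 96420822, minus strand), a receptor of the TNF receptor family, had 8, 16 and 7 counts in ethanol-exposed mice and 34, 41 and 16 in control mice. At this depth the interval of its log2FC ran from -2.47 to 0.40 around -1.04 (edgeR adjusted p = 0.209). Zmat3 (ENSMUSG00000027663, chromosome 3, 32388941 to 32419827, minus strand) had 4.20, 3.27 and 5.11 CPM in ethanol-exposed mice and 6.39, 6.01 and 6.48 CPM in control mice. This was the only target whose ethanol-exposed livers all lay below the control livers, with a log2FC of -0.59 (95% interval -1.07 to -0.11, edgeR adjusted p = 0.0534), which became -0.74 without ethanol replicate 3 (adjusted p = 0.00882) and -1.26 with library size alone (adjusted p = 0.00135).

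The order of the targets by FPKM differed between the groups. In control livers it was Trp53inp1 (17.3 FPKM on average), Bax (10.9), Ccng1 (8.98), Btg2 (6.06), Mdm2 (5.25), Cdkn1a (4.88), Zmat3 (0.648), Phlda3 (0.614), Gadd45a (0.440) and Eda2r (0.0712). The library ranges of neighbours overlapped for Bax and Ccng1, for Btg2, Mdm2 and Cdkn1a, and for Zmat3, Phlda3 and Gadd45a. In ethanol-exposed livers the order was Btg2 (219.5 FPKM on average), Trp53inp1 (86.7), Cdkn1a (61.0), Gadd45a (47.6), Bax (8.59), Mdm2 (5.79), Ccng1 (4.87), Phlda3 (0.580), Zmat3 (0.268) and Eda2r (0.0216). The 4 upregulated genes took the first 4 places, with overlapping ranges between each neighbouring pair, and Gadd45a also overlapped Bax, since ethanol replicate 3 held it at 8.87 FPKM.

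Within the ethanol-exposed mice, Cdkn1a did not vary with the other upregulated targets. Ethanol replicate 3 had the highest Cdkn1a level of the 3 ethanol-exposed livers, 0.42 above the mean of replicates 1 and 2 on the log2 CPM scale. The same liver had the lowest level of Gadd45a, Btg2 and Trp53inp1, at -2.84, -2.09 and -1.85 relative to that mean, and of Mdm2 at -0.73. It was the lowest ethanol-exposed liver for 8 of the 10 targets, all but Cdkn1a and Zmat3, as it was for 47.8% of the upregulated genes and 39.1% of all genes tested. The differences for Ccng1, Bax, Phlda3 and Eda2r were smaller, between -0.49 and -0.10. Of the 1738 upregulated genes, 261 (15.0%) were lower in ethanol replicate 3 by more than 1 on this scale, and the median over these genes was -0.09. Ratios of the highest to the lowest ethanol-exposed liver were 7.38 for Gadd45a, 5.52 for Btg2 and 3.97 for Trp53inp1, against 1.34 for Cdkn1a and a median of 1.64 over the upregulated genes. In the control mice these ratios were between 1.42 and 1.88 for the 4 genes. These differences rest on 1 liver and were not tested. The same liver stood apart in neutrophil markers, whose summed level was 2.52, 4.14 and 14.5 FPKM in ethanol replicates 1 to 3. S100a8 and S100a9, which encode the subunits of calprotectin, were 2.21 and 2.36 higher in ethanol replicate 3 than the mean of replicates 1 and 2 on the log2 CPM scale, and Lcn2, an acute-phase gene named after its value was seen, was 5.96 higher. Among the 261 upregulated genes that were lower in this liver by more than 1 were Atf3, Myc, Egr1 and Jun. They lay at -4.73, -2.88, -2.68 and -2.47 and were also named after their values were seen. The part of any of these genes in the spread of the targets was not tested.

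**Figure D2:**
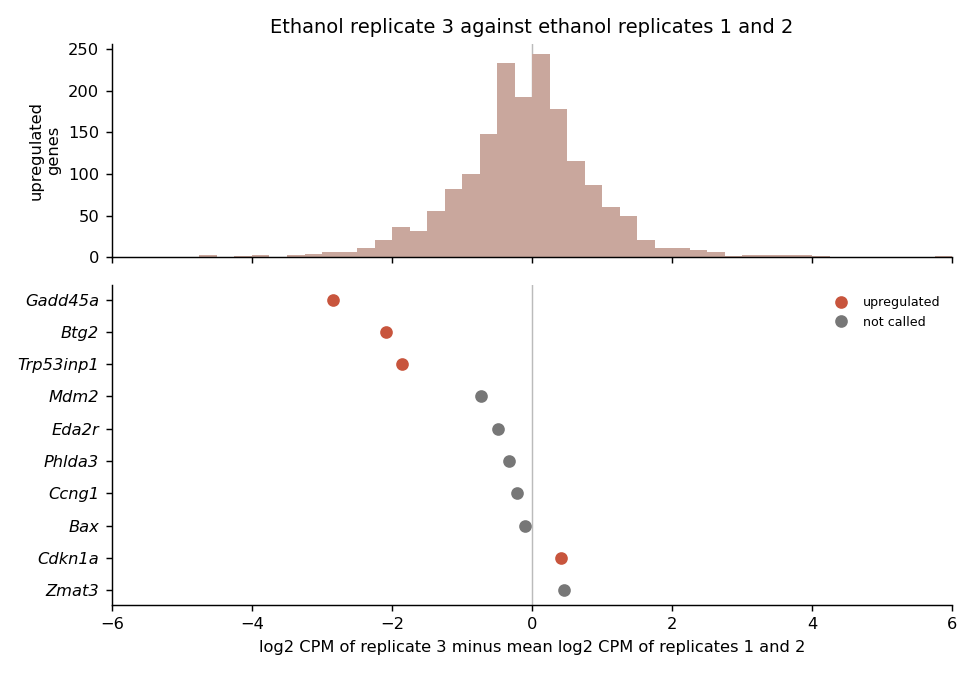
Difference of log2 CPM between ethanol replicate 3 and the mean of ethanol replicates 1 and 2, as a histogram over the 1738 upregulated genes (top) and for each p53 target (bottom, upregulated targets in red). Gadd45a, Btg2 and Trp53inp1 lie between -2.84 and -1.85, while Cdkn1a lies at 0.42.

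The genes most like Cdkn1a over the 6 livers were sought by the root mean square difference of their log2 CPM, each centred on its own mean and computed with a prior count of 2. This distance grows with any difference in the size of the rise. A gene that rose more than Cdkn1a, as Gadd45a did, is therefore placed farther away, and the ranks do not measure covariation alone. The closest genes with counts in both groups were Lepr, Ager and Mrap, at 0.19 to 0.22. Lepr, the leptin receptor, had 18.5, 18.7 and 20.6 CPM in ethanol-exposed mice and 0.895, 0.892 and 1.15 CPM in control mice, and Mrap, an accessory protein of melanocortin receptors, had 896, 568 and 1061 CPM against 39.3, 49.1 and 48.6 CPM. Saxo5 and Npc1l1 came out at 0.16 and 0.18, but they were at 0 counts in all control mice, so that the prior count sets their distance and their place in this order is not read. They lay at least 16.3-fold and 14.0-fold higher after ethanol when 3 counts per library were taken as the limit. Among the other targets, Btg2 was the nearest to Cdkn1a, at 1.08 and rank 440 of 16716 genes, followed by Trp53inp1 at rank 448, Gadd45a at 2093 and Mdm2 at 3159. These genes were chosen for their pattern, so no test is given.

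The transcript of p53 itself fell, while 4 of the 10 targets rose. Trp53, the gene of p53, had 4.83, 5.49 and 9.89 CPM in ethanol replicates 1 to 3 and 19.3, 17.3 and 16.2 CPM in control replicates 1 to 3. All ethanol-exposed livers were below all control livers, with a log2FC of -1.39 (SE 0.27, edgeR adjusted p = 0.00666). Of 24 tested genes that encode p53 and its kinases, ligases and cofactors, 2 were upregulated (8.33%, against 10.4% of all genes), 5 were downregulated (20.8%, against 13.8%) and 17 were not called, with a median log2FC of -0.23. Atm, the kinase that signals DNA double-strand breaks to p53, fell by 1.61 on the log2 scale (SE 0.33, edgeR adjusted p = 0.00760), and Trp53bp1, which binds chromatin at such breaks, fell by 1.35 (SE 0.14, edgeR adjusted p = 0.000508). Chek2 and Hipk2, other kinases that act on p53, were the remaining downregulated genes. Mdm4, the partner of Mdm2, showed a log2FC of -0.996 (edgeR adjusted p = 0.0116), just short of the threshold, from 40.2 ± 5.15 to 20.2 ± 6.49 CPM (SD, n = 3). Ppm1d, a phosphatase that is also a p53 target, had 3.72 ± 0.576 CPM after ethanol and 3.16 ± 0.348 CPM in controls (SD, n = 3; edgeR adjusted p = 0.394). Upregulated were Trim24, a ligase for p53, with a log2FC of 2.01 (SE 0.12, edgeR adjusted p = 8.86e-05), and Trp53bp2, a p53-binding protein, with 1.45 (SE 0.29, edgeR adjusted p = 0.00663). The call of Trp53bp2 was lost with library size alone, where its log2FC was 0.80 (adjusted p = 0.0568). It was also lost with limma, at 0.60 on log2(FPKM + 1) (adjusted p = 0.0988) and 0.69 on log2(FPKM + 0.1) (adjusted p = 0.101).

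**Figure D3:**
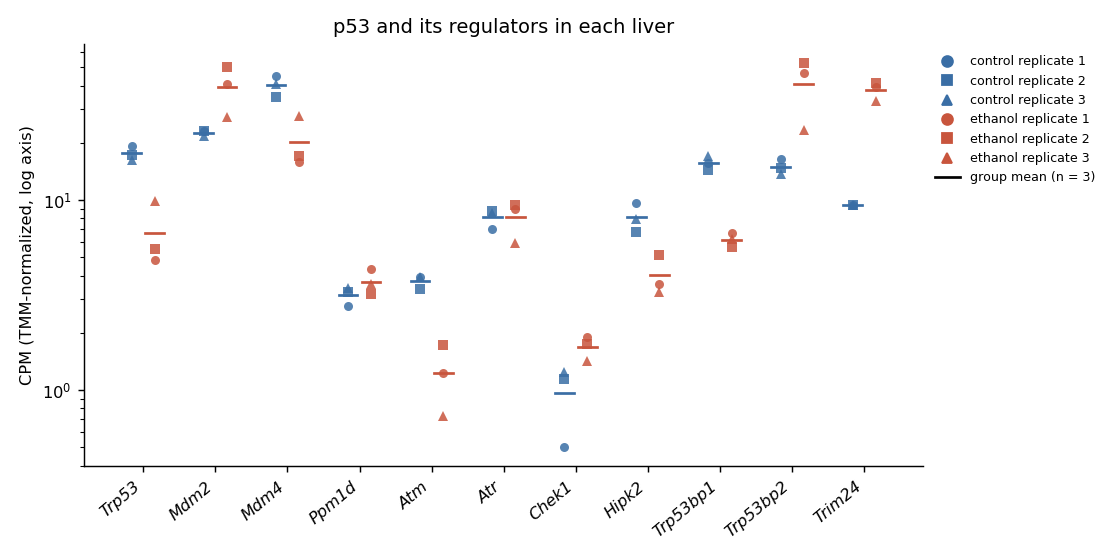
CPM of Trp53, Mdm2 and 9 other regulators of p53 on a log axis in each liver, control in blue and ethanol-exposed in red, with bars at the group means. Trp53, Mdm4, Atm, Hipk2 and Trp53bp1 lie lower in all ethanol-exposed livers, and Mdm2, Chek1, Trp53bp2 and Trim24 lie higher.

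A wider list of 42 further p53 targets was taken from textbook knowledge, and most of those tested were not called. Of the 39 tested, 11 were upregulated (28.2%, against 10.4% of all genes), 1 was downregulated (2.56%, against 13.8%) and 27 were not called. The median log2FC was 0.41. On the log2 scale Apaf1, the scaffold of the apoptosome, rose by 1.82 (SE 0.18, edgeR adjusted p = 0.000465) and Plk3, a stress-responsive kinase, by 3.15 (SE 0.45, edgeR adjusted p = 0.00177). Further upregulated genes were Ddit4, Epha2, Gdf15, Sfn, Pmaip1, Sesn1, Sertad1 and Ercc5, with a log2FC between 1.07 and 3.54. Steap3, a metalloreductase, was the downregulated gene, at -1.60 (SE 0.13, edgeR adjusted p = 0.000213). Bbc3, which encodes the death protein PUMA, had 8.83 ± 4.44 CPM after ethanol and 9.03 ± 0.627 CPM in controls (SD, n = 3), and the death receptor Fas showed a log2FC of 0.41 (edgeR adjusted p = 0.0977). These were named after their values were seen. Apaf1 fell short of the threshold on the fold change with limma, at 0.36 on log2(FPKM + 1) and 0.94 on log2(FPKM + 0.1). Without a TMM factor the list had 7 upregulated and 6 downregulated genes, where 5.06% of all genes were upregulated and 32.2% downregulated.

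The deposited table annotates 73 genes with the KEGG p53 signaling pathway, 6 of them among the 10 targets. Of the 67 tested, 12 were upregulated (17.9%, against 10.4% of all genes), 7 were downregulated (10.4%, against 13.8%) and 48 were not called. The smallest adjusted p belonged to Bcl2l1, which encodes the survival protein Bcl-xL, with 203 ± 7.56 CPM after ethanol and 25.7 ± 1.52 CPM in controls (SD, n = 3) and a log2FC of 2.98 (SE 0.10, edgeR adjusted p = 3.52e-05). Next were Cdkn1a and Gadd45g among the upregulated genes, and Steap3, Trp53 and Atm among the downregulated ones.

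**Figure D4:**
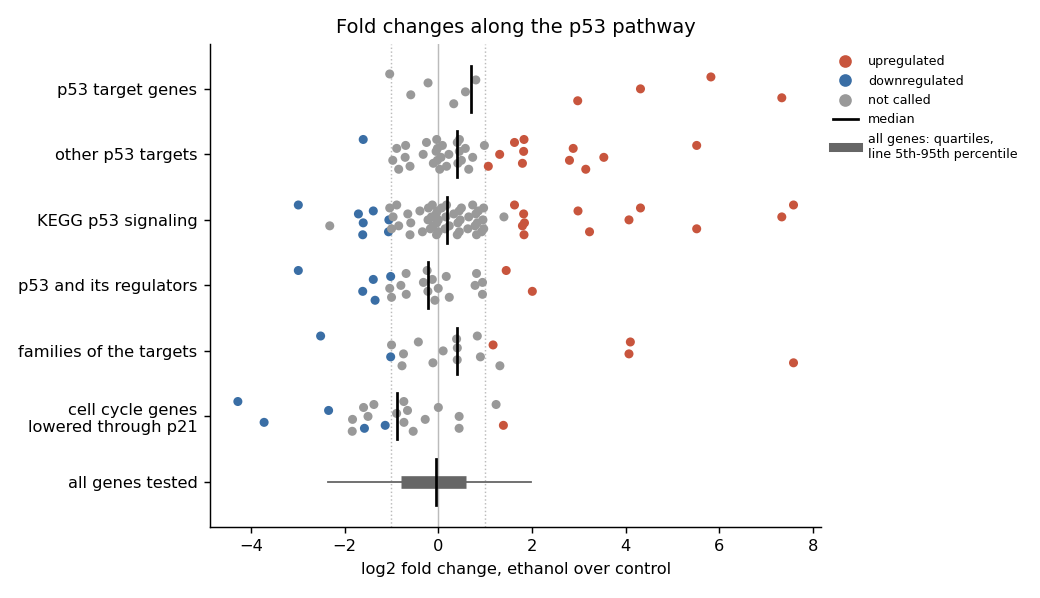
Log2FC of ethanol over control for the tested genes of each list, upregulated in red, downregulated in blue and not called in grey, with list medians in black. The grey box and line at the bottom give the quartiles and the 5th to 95th percentiles of all genes tested. The median is 0.69 for the 10 targets, 0.41 for the other targets, -0.23 for p53 and its regulators and -0.89 for the cell cycle genes.

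Families of the targets were compared member by member, since relatives of a target are not all under p53. All 3 Gadd45 genes were upregulated. Gadd45b had 284, 327 and 50.4 CPM in ethanol replicates 1 to 3 and 0.820, 1.42 and 1.21 CPM in control replicates 1 to 3, a log2FC of 7.59 (SE 0.80, edgeR adjusted p = 0.000586). It was lowest in ethanol replicate 3, as was Gadd45a. Gadd45g had 653, 560 and 382 CPM against 19.5, 35.5 and 39.8 CPM, a log2FC of 4.07 (SE 0.34, edgeR adjusted p = 0.000243). In the Btg and Tob family, on the log2 scale, Btg3 rose by 4.10 (SE 0.20, edgeR adjusted p = 5.92e-05) and Tob2 by 1.17 (SE 0.17, edgeR adjusted p = 0.00190), Btg1 showed a log2FC of 0.90 (edgeR adjusted p = 0.0863) and Tob1 of -0.74 (adjusted p = 0.0311), short of the threshold on the fold change. Tob2 was called no longer with library size alone, at 0.50. Its call was also lost with limma, at 0.40 on log2(FPKM + 1) (adjusted p = 0.0553) and 0.47 on log2(FPKM + 0.1) (adjusted p = 0.0569).

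The relatives of Cdkn1a did not pass the test. Cdkn1b, which encodes p27, had 13.8 ± 2.13 CPM after ethanol and 14.9 ± 1.35 CPM in controls (SD, n = 3), a log2FC of -0.11 (95% interval -0.47 to 0.25, edgeR adjusted p = 0.578). Cdkn1c, which encodes p57, was below 1.1 CPM in every liver, with an interval from -1.06 to 1.27. Trp53inp2, the relative of Trp53inp1, showed a log2FC of -0.77 (SE 0.12, edgeR adjusted p = 0.00219), opposite in sign to Trp53inp1, and Ccng2 one of 0.83 (adjusted p = 0.0112), both short of the threshold on the fold change. Bok, a relative of Bax, fell by 1.01 on the log2 scale (SE 0.26, edgeR adjusted p = 0.0174), a call that was lost without ethanol replicate 3 or any one control replicate (-1.05 to -0.78). Zmat1 fell by 2.51 on that scale (SE 0.25, edgeR adjusted p = 0.000489). Altogether 4 of the 18 tested relatives were upregulated (22.2%, against 10.4% of all genes) and 2 were downregulated (11.1%, against 13.8%). Without ethanol replicate 3, 7 relatives were upregulated, as were 10.9% of all genes tested.

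**Figure D5:**
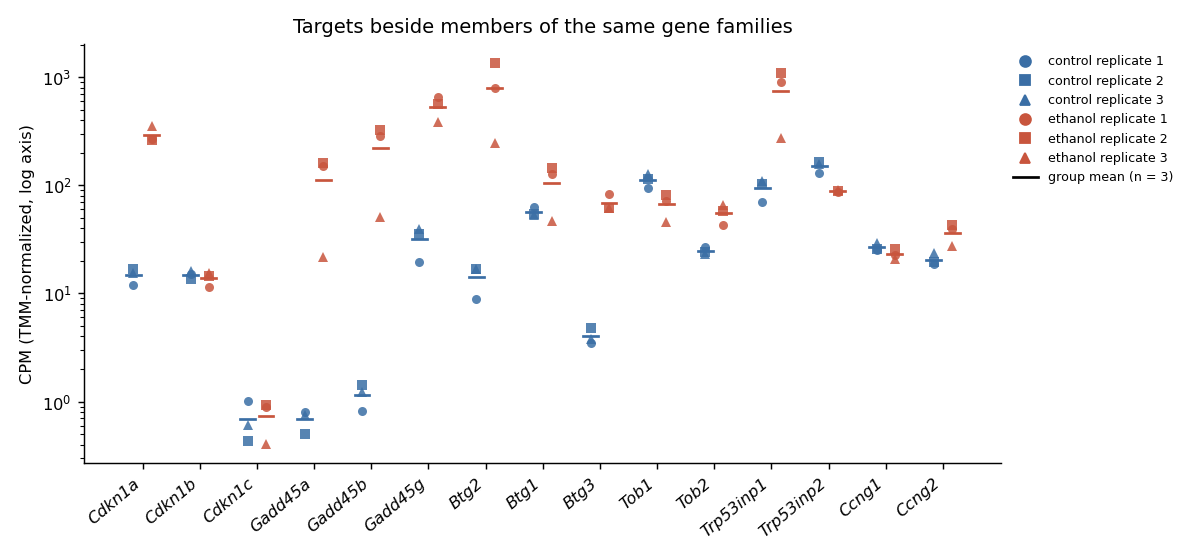
CPM on a log axis in each liver of 5 targets (Cdkn1a, Gadd45a, Btg2, Trp53inp1, Ccng1) beside relatives of the same gene families, control in blue and ethanol-exposed in red, with bars at the group means. Cdkn1b and Cdkn1c overlap between the groups, while Gadd45b and Gadd45g are separated like Gadd45a.

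Genes that p21 is known to lower, those of DNA replication and mitosis, had low levels in these livers. The 25 genes listed summed to 3.53 to 5.04 FPKM after ethanol and 8.96 to 13.4 FPKM in controls, without the TMM correction. Of 21 tested, 5 were downregulated (23.8%, against 13.8% of all genes), 1 was upregulated (4.76%, against 10.4%) and 15 were not called. Their median log2FC, with the correction, was -0.89. Birc5, which encodes survivin, had 12, 18 and 12 counts in ethanol-exposed mice and 104, 92 and 113 in control mice, a log2FC of -2.34 (SE 0.36, edgeR adjusted p = 0.00232). Mcm5, a subunit of the replicative helicase, had 20, 3 and 14 counts against 164, 460 and 403, a log2FC of -4.28 (SE 0.72, edgeR adjusted p = 0.00357), and Mcm3, of the same helicase, fell by 1.57 on the log2 scale (SE 0.33, edgeR adjusted p = 0.00789). Cdc20 and Aurka were the other downregulated genes. Plk1 was the upregulated one, at 24, 28 and 39 counts against 20, 12 and 19, a log2FC of 1.39 whose adjusted p of 0.0496 did not hold in 13 of 16 alternatives.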

How the data were processed

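Liver RNA from 3 ethanol-exposed and 3 control mice had been sequenced as paired-end libraries. The authors deposited, for each Ensembl gene, a raw read count and an FPKM value (sequenced fragments relative to transcript length and library size). Per the methods, reads with adaptors, of low quality or with ambiguous bases were discarded; the aligner, the counting software and the use of strand are not given in the sources used here. The submitters' processing notes name GRCm38 and mm10, but the table places 9 of the 10 targets elsewhere than GENCODE M21 on GRCm38 (Cdkn1a starts at 29309950 and 29090976, respectively), so coordinates of the table and of the RefSeq promoters are kept apart. A further column of counts (1 in number) belongs to none of the libraries and was left out.

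The 10 targets, the lists and the tests were chosen with earlier results of these data known. Genes were named by a fixed rule: all 10 targets, in the other lists the 3 called genes with the smallest adjusted p in each direction (all called genes for the families), Trp53, overlapping genes and the 5 genes closest to Cdkn1a; other genes complete a count or were named after their values were seen. One gene that the rule names is not reported here. Counts were filtered by filterByExpr, scaled by TMM and tested without covariates in edgeR 4.0.16 (R 4.3.3); standard errors and 95% intervals come from the quasi-likelihood F statistic. DESeq2 1.42.0 and limma 3.58.1 were alternatives. Tests were checked on simulated counts. These varied less between livers than the data and held no built-in difference in scaling between the groups, so the check does not cover those features. With 60514417 to 74210869 counts per library, the number of mice limits the precision except for the lowest genes; the limit of 3 counts covers counting error only. Libraries of one group differed by more than sampling noise (chi-square of 49.6 to 496 per degree of freedom), and none was merged. Cell type markers also covered monocytes (1 up and 1 down of 4 tested), sinusoidal endothelial cells (2 and 3 of 10), stellate cells (0 and 2 of 10), cholangiocytes (1 and 0 of 6), T cells (0 and 1 of 4) and B cells (0 and 2 of 7).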

Additional observations from a re-analysis of the deposited data

How the results depend on the processing

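The rises of Cdkn1a, Btg2, Gadd45a and Trp53inp1 kept their direction and stayed past the threshold in every alternative run. Cdkn1a lay between 3.40 and 4.46 on the log2 scale over the other settings and between 4.17 and 4.43 with each library left out in turn. The other 3 were smallest with limma on log2(FPKM + 1), at 4.67 for Btg2, 4.63 for Gadd45a and 2.05 for Trp53inp1 against 5.82, 7.34 and 2.98 as reported. With library size alone the median of all genes was -0.71 instead of -0.04, and 846 genes were upregulated and 5383 downregulated instead of 1738 and 2301 (86.4% instead of 57.0% of calls were falls). The numbers were 1911 and 1921 (50.1%) with the transcript length trend removed, 408 and 1713 (80.8%) with limma on log2(FPKM + 1) and 752 and 4965 (86.8%) on log2(FPKM + 0.1). The sign of Bax turned to -0.34, -0.295 and -0.32, and that of Phlda3 to -0.0837, -0.0308 and -0.0695, with library size alone, limma on log2(FPKM + 1) and limma on log2(FPKM + 0.1).

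Counts that moved by more than 1.5 times are given as upregulated and downregulated. The shares of all genes tested moved too. They were 5.06% and 32.2% with library size alone, 2.55% and 10.7% with limma on log2(FPKM + 1), and 4.70% and 31.0% on log2(FPKM + 0.1). They were 10.6% and 12.1% with a mean of at least 1 FPKM, and 21.5% and 21.5% with no threshold on the fold change. They were 11.4% and 11.5% with the transcript length trend removed, and 9.47% and 13.7% with DESeq2. With library size alone, 1 target was downregulated, other targets had 7 and 6, p53 and its regulators 1 and 10, families 5 downregulated, cell cycle genes 0 and 11, and the KEGG pathway 18 downregulated. With limma on log2(FPKM + 1), other targets had 5 and 2, regulators 0 and 2, families 4 downregulated, cell cycle genes 0 and 1, and the KEGG pathway 6 and 4. With limma on log2(FPKM + 0.1), 1 target was downregulated, other targets had 5 and 6, regulators 1 and 10, families 5 downregulated, cell cycle genes 0 upregulated, and the KEGG pathway 17 downregulated. When genes under a mean of 1 FPKM were dropped, other targets had 7 upregulated, regulators 2 downregulated, cell cycle genes 0 and 0, and the KEGG pathway 4 downregulated, with fewer genes tested by construction. With no threshold on the fold change, other targets had 2 downregulated, regulators 5 and 9, families 5 downregulated, and the KEGG pathway 23 upregulated. With the transcript length trend removed, regulators had 4 upregulated, and with DESeq2 other targets had 2 downregulated. Plk1, the upregulated cell cycle gene, lost its call with upper quartile scaling or no low-count filter (0 upregulated). With limma on log2(FPKM + 1), Atm, Trp53bp1, Trim24, Zmat1, Birc5 and Mcm3 kept their direction at an adjusted p under 0.05 but fell short of the threshold on the fold change. Apart from the limits that the filter and the threshold set, the cause was not tested. With each library left out in turn, upregulated and downregulated genes numbered 4 to 5 and 0 to 0 for the targets, 8 to 11 and 1 to 3 for other targets, 2 to 3 and 3 to 5 for regulators, 4 to 7 and 1 to 2 for families, 0 to 1 and 3 to 5 for cell cycle genes, and 11 to 14 and 3 to 9 for the KEGG pathway. In these runs 8.57% to 10.9% of all genes tested were upregulated and 9.88% to 16.5% downregulated. No pairing of mice by replicate number was seen. Same-numbered mice had correlations of -0.03, -0.02 and -0.02 in their deviations from the group means, against -0.007 to 0.03 for other pairs. With 3 livers per group, these values cannot settle whether the mice were paired. With the replicate number as a block, 4 targets were upregulated, 1518 and 2000 genes were called in all, and cell cycle genes had 0 upregulated.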
